A study of Mus musculus with 12 samples.

Results

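The response to interferon alpha (IFNα) that B16F10 cells carrying wild-type IRF7 shared with B16F10 cells carrying its C435A form was measured as the main effect of IFNα, 6 IFNα libraries against 6 control libraries, with the line as a covariate. All 12 libraries of the series entered this comparison, and 17590 of the 27503 genes in the deposited table passed the filter on low counts and were tested. B16F10 is a transplantable mouse melanoma line, and C435A puts alanine in place of a cysteine of IRF7, which activates the transcription of type I interferon genes. The 4 groups were wild-type IFNα, mutant IFNα, wild-type control and mutant control, with 3 libraries each. The labels do not state the dose or duration of IFNα, how the mutant line was made, whether it is 1 clone, or whether each library is a culture of its own. The p-values therefore reflect the spread among these libraries, which may be technical. The melanocyte lineage genes were present in every library, with Pmel at 865 to 1222 FPKM (a fragment density scaled for transcript length and library size), Mlana at 723 to 1215 FPKM and Sox10 at 99.9 to 167 FPKM.

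Type I interferons bind the receptor pair IFNAR1 and IFNAR2, whose kinases JAK1 and TYK2 phosphorylate STAT factors. With IRF9 these bind interferon-stimulated response elements in the promoters of antiviral genes, and STAT dimers bind gamma-activated sites (GAS) in genes such as Irf1. SOCS1 and USP18 end the signal, and IRF and NF-kB factors at the Ifnb1 promoter start further interferon production.

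Library totals were 60511573 to 75927461 counts. Transcripts of lung epithelium were present in 8 libraries, 4 of each treatment, and near 0 in the others. The 12 lung markers, among them the surfactant genes Sftpc, Sftpd and Sftpa1, summed to 50.1 to 74.9 CPM (counts scaled to library size) in all wild-type IFNα libraries, mutant IFNα 3, wild-type control 1 and all mutant control libraries, and to 0.889 to 1.08 CPM in mutant IFNα 1 and 2 and wild-type control 2 and 3. Sftpa1 and Sftpd were at 0 in each of these last 4 libraries. The balance of 4 and 4 holds for the shared effect only: in the wild type all 3 IFNα libraries but 1 of 3 controls held them, and in the mutant 1 of 3 IFNα libraries but all 3 controls did. The median log2 fold change of the lung markers was 1.53 in wild-type cells and −0.96 in C435A cells, and that of the fibroblast and endothelial markers 0.84 and −0.51. Values per line and differences between the lines carry this imbalance, and its part in them was not tested. Leukocyte markers summed to 102 to 147 CPM with IFNα and 105 to 179 CPM without. Fibroblast and endothelial markers summed to 107 to 179 CPM with IFNα and 111 to 154 CPM without. Of the 12, 20 and 23 markers tested, 0 were called in either direction with edgeR or with DESeq2, and 0, 0 and 1 lay at an unadjusted p under 0.05. The library farthest from the others of its group was mutant IFNα 3, where the log2 ratio to them had an SD of 0.391 over 6318 genes, against 0.195 to 0.32 in the other 11 libraries. In bulk RNA, fewer cells of a type and less RNA per cell cannot be told apart. Irf7 RNA, which does not show the amino acid change, is given with the other IRF genes.

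With IFNα, 9 genes were higher (0.0512% of those tested) and 12 were lower (0.0682%) at an adjusted p of at most 0.05, in the quasi-likelihood test of edgeR, adjusted by Benjamini-Hochberg over all genes. The genes that rose were Irf1, Ifnb1, Ifna4, Cxcl10, Slc29a1, Nup210, Mapk11, Rmi2 and Gm12250. Those that fell were Col9a3, Id3, Ddit3, Gm16316, Bfsp2, Hsd3b7, Dync1i1, Optn, Lncbate10, Vamp5, Padi3 and Rcsd1. The changes were small, with absolute log2 fold changes of 0.42 to 2.01, and 4 of the 21 genes (Ifna4, Mapk11, Col9a3 and Lncbate10) changed at least 2-fold. At an unadjusted p under 0.05, 950 genes were higher (5.4%) and 722 lower (4.1%). A positive log2 fold change was seen for 8862 of the 17590 genes tested. DESeq2 called 121 genes higher (0.688%) and 109 lower (0.62%), with 18 of the 21 genes among them, while Ifna4, Mapk11 and Lncbate10 received no adjusted p from it. These shares over all genes are the background for the counts within lists given below. The common biological coefficient of variation was 30.1%.

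The number of calls depended on single libraries. Leaving out 1 library at a time gave 1 to 12 genes higher and 1 to 18 lower. Without mutant control 3 there was 1 gene in each direction, and without wild-type IFNα 3 there were 1 higher and 2 lower. Without mutant control 2 there were 2 and 2, without wild-type IFNα 1 there were 4 and 1, and without mutant control 1 there were 4 and 2. Without wild-type control 1 or wild-type control 2 there were 3 and 3 each. Without mutant IFNα 2 there were 5 and 5, without mutant IFNα 1 there were 5 and 10, without wild-type IFNα 2 there were 6 and 6, and without wild-type control 3 there were 8 and 8. The largest numbers, 12 and 18, came without mutant IFNα 3, and 20 of the 21 genes were among them. Irf1 and Col9a3 were called in all 12 of these fits. All 21 genes kept their sign in each of the 12.

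Promoter sequences of the 4 interferon-pathway genes that rose are shown because IRF, STAT and NF-kB factors are known to act through elements in such promoters. Each is the 250 bases before the start of transcription, 5′ to 3′ on the gene's strand, from RefSeq on GRCm38.p6. Capitals mark matches on either strand to an IRF element (AANNGAAA), a GAS element (TTCNNNGAA), the NF-kB consensus of 10 letters, or a GC-rich SMAD motif (GGCGCC), and adjoining or overlapping matches run together.
Irf1: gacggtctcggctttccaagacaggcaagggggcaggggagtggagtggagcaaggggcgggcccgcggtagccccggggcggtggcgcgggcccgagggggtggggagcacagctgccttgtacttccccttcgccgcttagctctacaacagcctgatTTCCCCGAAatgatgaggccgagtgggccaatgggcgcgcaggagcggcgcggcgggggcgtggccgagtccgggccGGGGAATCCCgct
Ifnb1: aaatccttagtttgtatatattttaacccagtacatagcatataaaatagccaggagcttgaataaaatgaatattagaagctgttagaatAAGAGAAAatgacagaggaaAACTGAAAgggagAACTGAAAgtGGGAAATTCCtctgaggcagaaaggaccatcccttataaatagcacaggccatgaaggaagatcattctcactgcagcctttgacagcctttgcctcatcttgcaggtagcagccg
Ifna4: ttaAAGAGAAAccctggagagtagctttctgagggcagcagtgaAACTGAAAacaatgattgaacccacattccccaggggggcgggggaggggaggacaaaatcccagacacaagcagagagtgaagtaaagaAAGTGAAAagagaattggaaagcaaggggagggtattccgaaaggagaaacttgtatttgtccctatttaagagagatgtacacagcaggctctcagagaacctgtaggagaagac
Cxcl10: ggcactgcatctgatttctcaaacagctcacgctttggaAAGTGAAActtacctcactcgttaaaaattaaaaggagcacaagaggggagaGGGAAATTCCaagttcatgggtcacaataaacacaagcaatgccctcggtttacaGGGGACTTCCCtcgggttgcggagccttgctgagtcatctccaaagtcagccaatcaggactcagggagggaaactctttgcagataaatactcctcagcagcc
They lie at chr11:53769764-53770013 on the plus strand (Irf1, the first of its 2 RefSeq starts), chr4:88522795-88523044 on the minus strand (Ifnb1), chr4:88841566-88841815 on the plus strand (Ifna4) and chr5:92348890-92349139 on the minus strand (Cxcl10). The Irf1 window held 1 GAS element, beginning 90 bases before the start, and 1 NF-kB match at 13 bases, with no IRF element. The window of its other start, not shown, held none of the elements searched. In Ifnb1 there were 3 IRF elements, beginning 159, 139 and 126 bases before the start, and an NF-kB match at 116 bases. The Ifna4 window held 3 IRF elements and none of the other elements. In Cxcl10 there were 1 IRF element at 211 bases and 3 NF-kB matches at 159, 104 and 103 bases, of which the last pair overlap. Among all 32851 RefSeq windows of this length, 21.3% held an IRF element, 7.02% a GAS element, 7.25% an NF-kB match and 9.59% the SMAD motif. The 8 genes called higher that have a window have 16 in all, since some have several starts, and Slc29a1 alone has 8. Of these 16 windows 9 held an IRF element, 2 a GAS element, 4 an NF-kB match and 0 the SMAD motif. By gene, 6, 2, 4 and 0 of the 8 held them. Windows of 1 gene are not separate promoters, and a gene with several has more chances of a match, so neither count compares directly with the shares above. The 8 genes called lower that have a window have 8 windows, of which 3, 1, 1 and 1 held these elements. A match is a description of letters, not of binding.

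Irf1 (ENSMUSG00000018899, chromosome 11, 53660841 to 53668149 as deposited) encodes a transcription factor that activates antiviral, antigen-presentation and cell-death genes. Its level was 15.9, 12.4 and 12.8 FPKM in wild-type IFNα and 16.6, 17.5 and 16.8 FPKM in mutant IFNα, against 7.58, 8.18 and 9.08 FPKM in wild-type control and 11.2, 9.7 and 10.5 FPKM in mutant control. Every IFNα library was above every control library, across both lines. Irf1 rose 1.61-fold (95% interval 1.46 to 1.79), a log2 fold change of 0.69 ± 0.07 (SE) with an adjusted p of 0.000687 by edgeR, the smallest of all genes tested. The change was 0.71 ± 0.10 in wild-type cells and 0.68 ± 0.10 in C435A cells, and the difference between the lines had an interval of −0.33 to 0.27. It was called in each of the 14 other settings too.

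Irf1 was the 1 gene of its family that passed in edgeR. Of 12 IRF and IRF-binding-protein genes tested, 0 others were called by it in either direction. The median log2 fold change was 0.04, against 0.00 over all genes. At an unadjusted p under 0.05, 4 were higher and 0 lower (all genes 5.4% and 4.1%), and DESeq2 called 2 higher, Irf1 included in each. Irf9, which carries STAT factors to DNA, was at −0.02 ± 0.07, and Irf3, the factor activated by nucleic acid sensors, was at −0.08. Irf7 was at 8.84, 9.87 and 8.45 FPKM in wild-type IFNα and 4.63, 4.69 and 7.23 FPKM in mutant IFNα, against 11.6, 12.8 and 12.5 FPKM in wild-type control and 4.99, 4.44 and 5.19 FPKM in mutant control. In the wild type the IFNα libraries were all below the controls, and in the mutant the groups overlapped. The shared value was −0.15 ± 0.14 (edgeR adjusted p = 0.801).

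Transcripts of the interferon genes Ifnb1 and Ifna4 were higher with IFNα. Ifnb1 (ENSMUSG00000048806, chromosome 4, 88440262 to 88441011) encodes interferon beta, the type I interferon that many cell types make first after infection. It was at 24.2, 31.0 and 25.5 FPKM in wild-type IFNα and 36.7, 36.8 and 34.0 FPKM in mutant IFNα, against 17.9, 16.3 and 13.4 FPKM in wild-type control and 20.8, 17.9 and 19.9 FPKM in mutant control. Here too all IFNα libraries lay above all control libraries. Ifnb1 rose 1.74-fold (interval 1.47 to 2.06), with a log2 fold change of 0.80 ± 0.11 and an edgeR adjusted p of 0.0206. Its call ended without wild-type IFNα 3 (adjusted p = 0.0515), mutant control 2 (0.0525) or mutant control 3 (0.0521).

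Ifna4 (ENSMUSG00000070904, chromosome 4, 88760098 to 88760658), an interferon alpha gene induced early through IRF3 and IRF7, had the largest change of the 21 genes. It was at 6.06, 9.0 and 8.72 FPKM in wild-type IFNα and 4.09, 3.91 and 4.83 FPKM in mutant IFNα, against 4.35, 2.19 and 1.73 FPKM in wild-type control and 0.368, 0.837 and 0.83 FPKM in mutant control. The groups did not overlap within either line, although the highest wild-type control lay among the mutant IFNα libraries. In counts, Ifna4 ranged from 169 to 390 with IFNα and from 14 to 185 without. It rose 4.03-fold (interval 2.58 to 6.29), a log2 fold change of 2.01 ± 0.30 (edgeR adjusted p = 0.0206), with 1.5 ± 0.37 in wild-type cells and 2.61 ± 0.40 in C435A cells. The difference between the lines was 1.11, with an interval of −0.03 to 2.25. The call ended without wild-type IFNα 3 (adjusted p = 0.081), wild-type control 2 (0.0612), mutant control 2 (0.0668) or mutant control 3 (0.0675). Interferon alpha genes are near-identical copies, so how the authors' counting split their reads limits this value. The other interferon alpha genes of the table, Ifna2 and Ifna5, had at most 8 counts in any library and were not tested, nor was Ifng, with 0 counts in each IFNα library and 0 to 8 in the controls. Ifnz, a further type I interferon gene, had 14 to 37 counts with IFNα and 10 to 36 without, and its log2 fold change of 0.49 ± 0.48 did not pass (edgeR adjusted p = 0.821).

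Of 9 interferon and interferon receptor genes tested, Ifnb1 and Ifna4 were called and 0 were lower, with a median log2 fold change of 0.24. The receptor chains of type I interferon were at 0.15 ± 0.09 (Ifnar1) and 0.03 ± 0.08 (Ifnar2), and neither passed.

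Cxcl10 (ENSMUSG00000034855, chromosome 5, 92494497 to 92496741) encodes a chemokine that attracts T cells and NK cells through CXCR3. It was at 263, 196 and 219 FPKM in wild-type IFNα and 207, 202 and 238 FPKM in mutant IFNα, against 140, 159 and 181 FPKM in wild-type control and 131, 149 and 150 FPKM in mutant control. The lowest IFNα library was above the highest control library. Cxcl10 rose 1.44-fold (interval 1.27 to 1.62), a log2 fold change of 0.52 ± 0.08 (edgeR adjusted p = 0.0235), with 0.48 ± 0.12 in wild-type cells and 0.57 ± 0.12 in C435A cells. It was called in 5 of the 12 fits without 1 library, and its adjusted p was 0.0612 to 0.095 in the others. Those left out wild-type IFNα 1 (0.0789), IFNα 3 of that line (0.095), wild-type control 1 (0.0747), wild-type control 2 (0.0612), mutant control 1 (0.0632), mutant control 2 (0.0818) or mutant control 3 (0.0688). The gene lies within Art3 on the opposite strand, which had 5978 counts over all libraries against 370554 for Cxcl10. Of 42 chemokine and cytokine genes tested, Cxcl10 was called higher and 0 were called lower, and the median was 0.13. At an unadjusted p under 0.05, 7 were higher and 1 lower (all genes 5.4% and 4.1%). The other CXCR3 ligands, named after their values were seen, were at 0.96 (Cxcl9, edgeR adjusted p = 0.133) and 0.58 (Cxcl11, adjusted p = 0.203) and did not pass. The chemokine gene Ccl5 averaged 95.5 FPKM with IFNα and 99.6 FPKM without, at −0.09 ± 0.10.

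**Figure D1:**
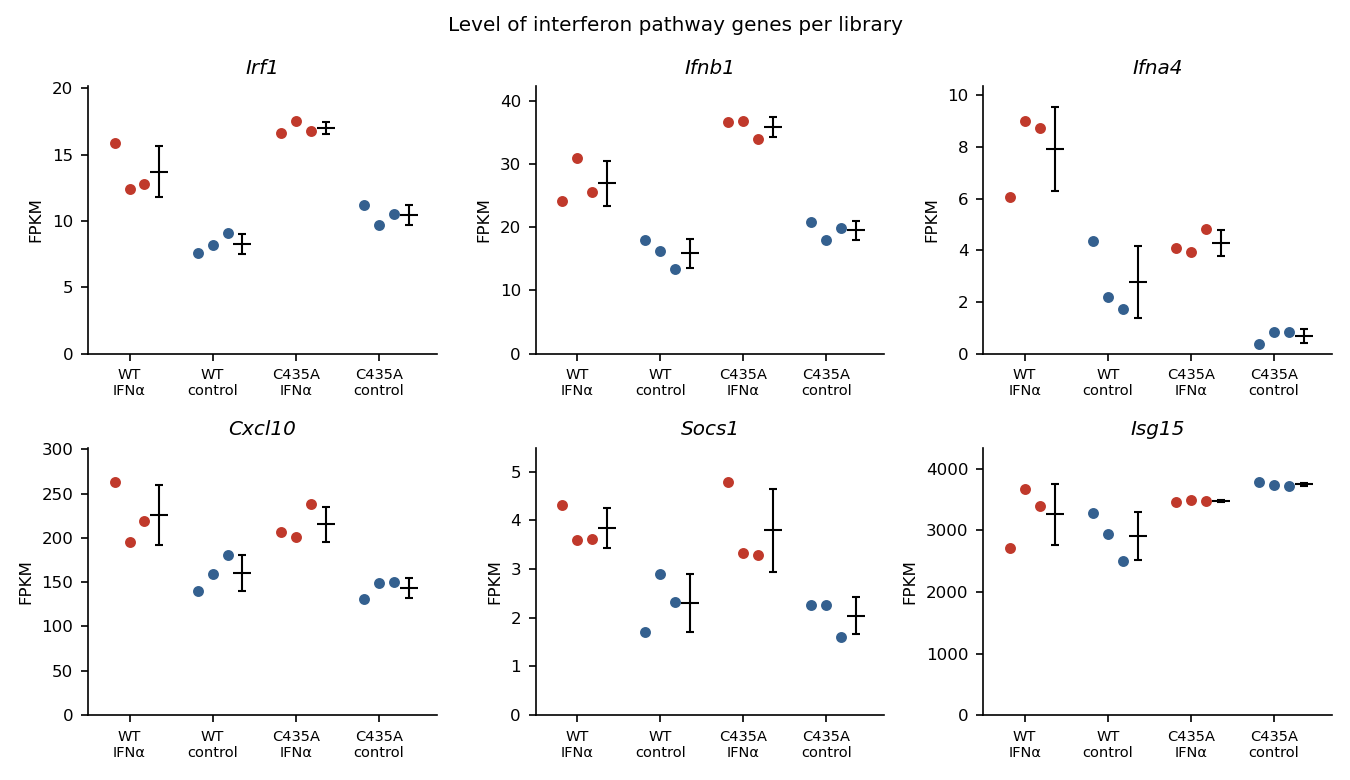
Level of 6 interferon pathway genes in FPKM, 1 point per library (red IFNα, blue control), with mean and SD of the 3 libraries of a group as a black bar. Irf1, Ifnb1, Ifna4 and Cxcl10 were called higher with IFNα, while Socs1 (edgeR adjusted p = 0.0558) and Isg15 (0.989) were not.

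The feedback inhibitor Socs1, which blocks JAK kinases, was just outside the threshold. It was at 4.32, 3.60 and 3.62 FPKM in wild-type IFNα and 4.78, 3.33 and 3.28 FPKM in mutant IFNα, against 1.70, 2.90 and 2.32 FPKM in wild-type control and 2.27, 2.26 and 1.60 FPKM in mutant control. All IFNα libraries lay above all controls, at a log2 fold change of 0.79 ± 0.15 (edgeR adjusted p = 0.0558). It was the closest of 28 JAK-STAT and SOCS genes, of which 0 were called in either direction by edgeR and 1 was called higher by DESeq2 (Socs1). At an unadjusted p under 0.05, 3 were higher (all genes 5.4%). Among these was Stat2, at 0.32 ± 0.09 (adjusted p = 0.215). Jak1 was at −0.01 ± 0.08, Tyk2 at 0.06 ± 0.11 and Socs3 at 0.03 ± 0.12. The other negative regulator of the receptor, Usp18, was at −0.02 ± 0.10.

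Of 64 antiviral interferon-stimulated genes tested, 0 passed in edgeR in either direction, and 15 of them were at 100 FPKM or more in the controls. Isg15, a ubiquitin-like modifier, averaged 3373 FPKM over the 6 IFNα libraries and 3331 FPKM over the 6 controls, a log2 fold change of 0.01 ± 0.12 with an interval of −0.24 to 0.26. Ifit3, of the RNA-binding IFIT family, averaged 683 FPKM with IFNα and 577 FPKM without (0.22 ± 0.13), and Oas1a, which makes the activator of RNase L, averaged 476 FPKM with IFNα and 509 FPKM without (−0.12 ± 0.10). Ifit1 was at 0.15 ± 0.11 and Rsad2, which encodes viperin, at 0.27 ± 0.11. Mx1, a dynamin-like GTPase, was at 25.2, 18.9 and 18 FPKM in wild-type IFNα and 30.1, 33.3 and 24.4 FPKM in mutant IFNα, against 16.5, 13.2 and 18 FPKM in wild-type control and 25.7, 21.1 and 20.1 FPKM in mutant control. Its log2 fold change was 0.36 ± 0.10 (edgeR adjusted p = 0.191).

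As a list, 48 of the 64 antiviral genes had a positive value, against 8862 of 17590 over all genes. The median log2 fold change was 0.14 against 0.00 over all genes. At an unadjusted p under 0.05, 14 were higher and 2 lower (all genes 5.4% and 4.1%). DESeq2 called 5 higher (Tor3a, Cmpk2, Parp14, Mx1 and Oasl2) and 0 lower (all genes 0.688% and 0.62%). The closest in edgeR were Tor3a, at 0.38 ± 0.08 (adjusted p = 0.0766), and Cmpk2, which encodes a mitochondrial nucleotide kinase, at 0.53 ± 0.11 (adjusted p = 0.0882). The upper end of the 95% interval lay under 2-fold for 62 of the 64 genes and under 1.5-fold for 55. The list's median was 0.01 within the 8 libraries that held lung transcripts, where 34 of the 64 were positive. The 15 genes with at least 100 FPKM in the controls had values from −0.27 to 0.22 with a median of 0.01, and the 21 genes with 10 to 100 FPKM had a median of 0.17. For the 21 genes with 1 to 10 FPKM the median was 0.15, and for the 7 genes under 1 FPKM it was 0.27.

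**Figure D2:**
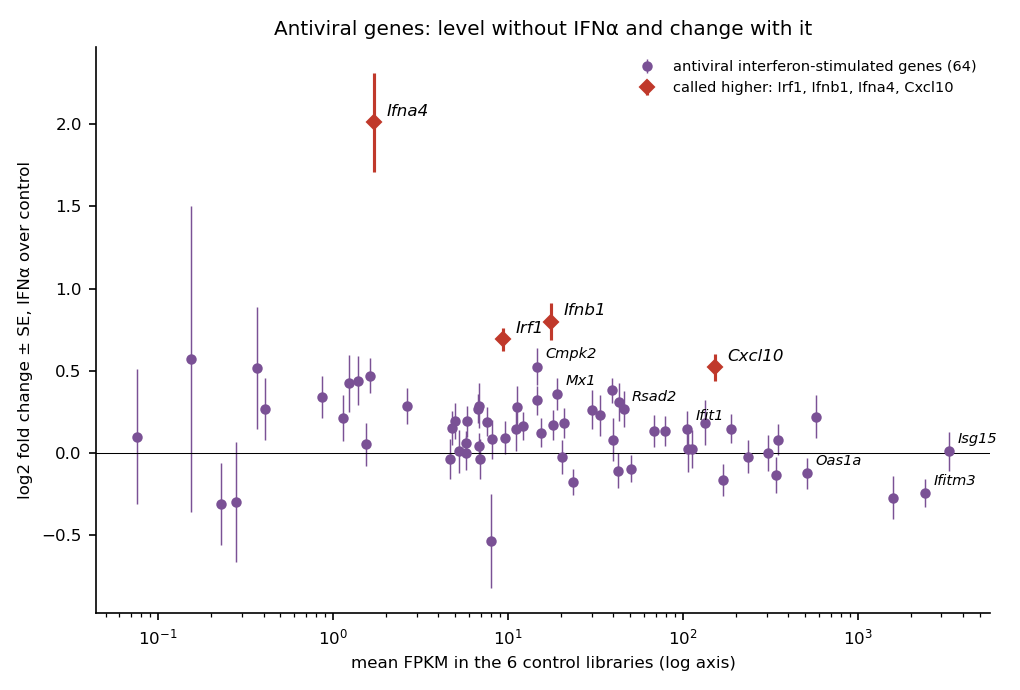
Mean FPKM in the 6 control libraries (log axis) against the log2 fold change with IFNα ± SE for 64 antiviral interferon-stimulated genes (purple) and 4 genes called higher (red diamonds). The antiviral genes with at least 100 FPKM lie between −0.27 and 0.22, and Ifna4, Ifnb1, Irf1 and Cxcl10 lie at 0.52 to 2.01.

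The other interferon-linked lists held no called gene beyond those described above. Gm12250, which was called higher and is described below, was a member of none of these lists. Among 17 interferon-inducible GTPases, which attack vacuoles that hold pathogens, 5 were higher and 0 lower at an unadjusted p under 0.05 (all genes 5.4% and 4.1%). DESeq2 called 3 of them higher, and the median was 0.22. Tgtp2 was at 0.38 ± 0.10 (edgeR adjusted p = 0.199) and Irgm2 at 0.27 ± 0.07 (adjusted p = 0.2). Gbp2 was at 0.23 ± 0.12 and Igtp at 0.17 ± 0.09, and neither passed. This median was −0.00 within the 8 libraries with lung transcripts, where 8 of 17 were positive. Of 35 nucleic acid sensing genes 7 were higher and 0 lower at an unadjusted p under 0.05 (all genes 5.4% and 4.1%), with a median of 0.11. Of these 7, 5 were AIM2-like DNA sensors, led by Mndal, at 0.49 ± 0.10 (adjusted p = 0.0882).

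Antigen presentation genes lay on both sides of 0. Of 26 MHC class I pathway genes, 3 were higher and 4 lower at an unadjusted p under 0.05 (all genes 5.4% and 4.1%), with a median of −0.04. Tap1, a subunit of the peptide transporter, was at 0.27 ± 0.08 (edgeR adjusted p = 0.215), Psme1, a proteasome activator subunit, at −0.39 ± 0.08 (adjusted p = 0.0882), H2-K1 at −0.11 ± 0.09 and B2m at −0.09 ± 0.12. Nlrc5, the transactivator of class I genes, was at 0.40 ± 0.13 (adjusted p = 0.315), and Psmb8, an immunoproteasome subunit, averaged 0.6 FPKM with IFNα and 0.913 FPKM without (−0.63 ± 0.26, adjusted p = 0.456). Of 13 MHC class II genes 0 were called, and the median was −0.15. At an unadjusted p under 0.05, 0 of them were higher and 1 lower (all genes 5.4% and 4.1%). Of 10 checkpoint ligands 0 were called, 9 were positive (all genes 8862 of 17590), and the median was 0.20. At an unadjusted p under 0.05, 3 of the ligands were higher and 0 lower. Among them Cd274, which encodes PD-L1, was at 0.28 ± 0.11 (adjusted p = 0.413).

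Among the genes that fell, Id3 (ENSMUSG00000007872, chromosome 4, 135870808 to 135872703) was among the most abundant. Id proteins lack a DNA-binding region and hold basic helix-loop-helix factors off DNA, and their genes are classic targets of BMP-SMAD signaling. Id3 was at 75.4, 81.2 and 75.1 FPKM in wild-type IFNα and 109, 122.8 and 102 FPKM in mutant IFNα, against 130, 164 and 172 FPKM in wild-type control and 145, 147 and 163 FPKM in mutant control. Each IFNα library was below each control library. Id3 had a log2 fold change of −0.74 ± 0.11 (edgeR adjusted p = 0.0206), with −1.01 ± 0.12 in wild-type cells and −0.47 ± 0.12 in C435A cells. Of the 21 genes it alone had an unadjusted p under 0.05 for the difference between the lines, at an edgeR adjusted p of 0.916. The call ended without wild-type IFNα 1 (adjusted p = 0.0522), without wild-type IFNα 3 (0.0874) or without mutant control 3 (0.0521).

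Its relatives Id1 and Id2 lay lower as well, without passing in the shared effect. Id1 was at 17.8, 19.4 and 16.4 FPKM in wild-type IFNα and 23, 26.7 and 30.0 FPKM in mutant IFNα, against 36.6, 41.7 and 41.9 FPKM in wild-type control and 31.5, 33.7 and 32.7 FPKM in mutant control. Its IFNα libraries were all below its controls, but the log2 fold change of −0.75 ± 0.14 had an edgeR adjusted p of 0.0631, and the change was −1.17 ± 0.12 in wild-type cells, where it passed (adjusted p = 0.00316), and −0.32 ± 0.12 in C435A cells, where it did not (0.427). The difference between the lines had an unadjusted p of 0.000219, which did not pass adjustment over all genes (0.916), and lung transcripts lay on opposite sides of the treatment in the lines. Id2 was at −0.59 ± 0.12 (adjusted p = 0.0752), and its values were 59.3, 65.1 and 50.4 FPKM in wild-type IFNα and 46.2, 45.7 and 60.4 FPKM in mutant IFNα, against 108, 81.0 and 79.2 FPKM in wild-type control and 72.3, 76.5 and 68.6 FPKM in mutant control. Smad6, an inhibitor of BMP signaling that BMP itself induces, was at −0.56 ± 0.12 (adjusted p = 0.0882), and Smad7 at −0.08 ± 0.14. Of 24 Id and BMP-SMAD genes tested, Id3 was called lower and 0 higher, and DESeq2 called 4 lower (Id1, Id2, Id3 and Smad6). At an unadjusted p under 0.05, 0 of the 24 were higher and 7 lower (all genes 5.4% and 4.1%). With the log2 level of lung transcripts as a covariate, edgeR called Id1 (adjusted p = 0.039) and Id2 (0.044) lower too. The list median was −0.08.

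Col9a3 (ENSMUSG00000027570, chromosome 2, 180239583 to 180263982), a chain of the cartilage collagen IX, was the second gene called in every fit without 1 library. It was at 0.946, 0.88 and 0.684 FPKM in wild-type IFNα and 0.941, 0.876 and 0.635 FPKM in mutant IFNα, against 1.87, 2.22 and 2.10 FPKM in wild-type control and 1.36, 1.51 and 1.56 FPKM in mutant control. All 6 IFNα libraries were below all 6 controls, at levels near 1 FPKM. The log2 fold change was −1.10 ± 0.14 (edgeR adjusted p = 0.00693). Of 45 TGF-beta and collagen genes Col9a3 was called lower and 0 were called higher, with a median of 0.03.

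Ddit3 (ENSMUSG00000025408, chromosome 10, 127126643 to 127132157) encodes CHOP, a transcription factor of the integrated stress response. It was at 90.3, 105 and 95.6 FPKM in wild-type IFNα and 119, 134 and 106 FPKM in mutant IFNα, against 151, 135 and 151 FPKM in wild-type control and 192, 164 and 160 FPKM in mutant control. The highest IFNα library was just under the lowest control library. Its log2 fold change was −0.58 ± 0.09 (edgeR adjusted p = 0.022), with −0.60 ± 0.13 in wild-type cells and −0.55 ± 0.13 in C435A cells. The call held in 5 of the 12 fits without 1 library and ended without wild-type IFNα 1 (adjusted p = 0.0522), without wild-type IFNα 3 (0.0874), or without wild-type control 1 (0.0649), wild-type control 2 (0.0588), mutant control 1 (0.0622), mutant control 2 (0.0525) or mutant control 3 (0.0521). Of 39 ATF4-pathway genes tested, Ddit3 was called lower and 0 higher, and the median was 0.09. At an unadjusted p under 0.05, 7 were higher and 4 lower (all genes 5.4% and 4.1%). Ppp1r15a, which ends the stress response by restarting translation and was named after its values were seen, was at 0.42 (adjusted p = 0.0882).

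**Figure D3:**
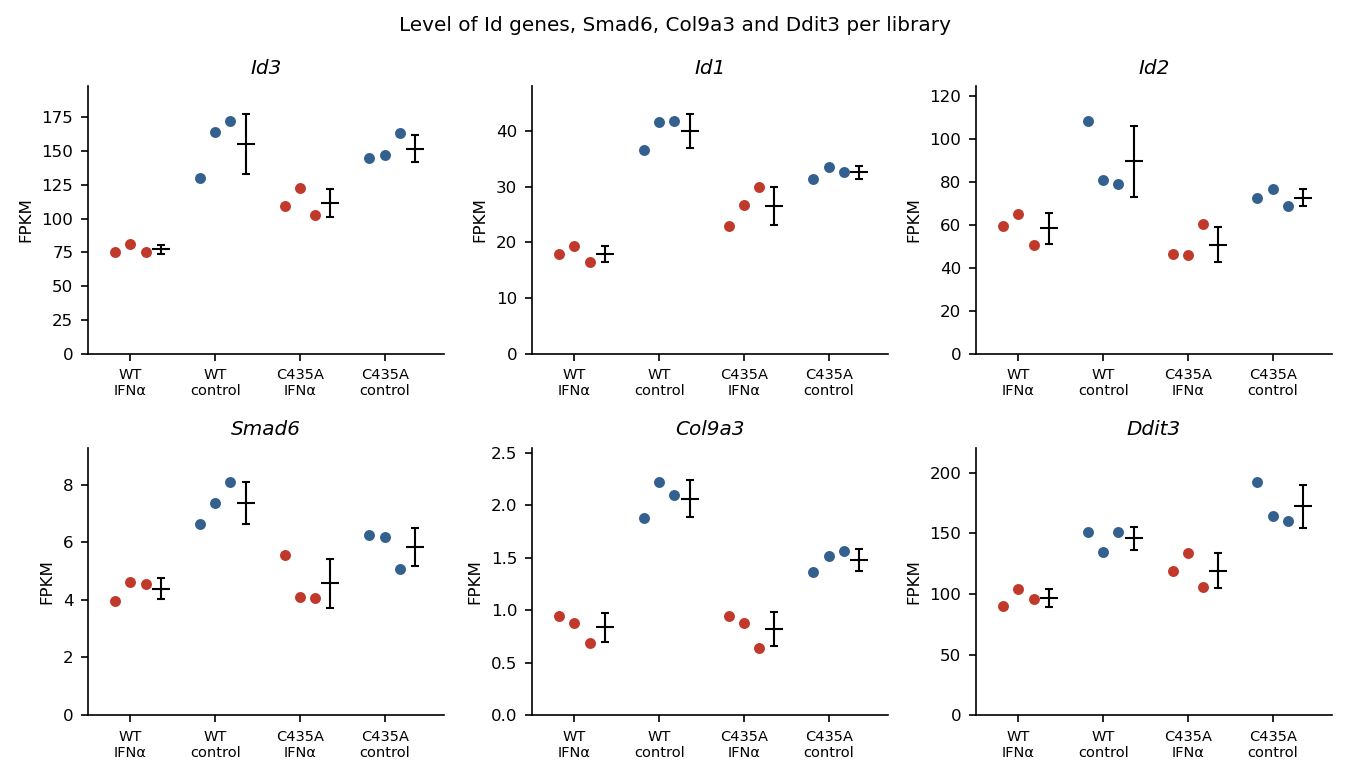
Level of 6 genes in FPKM, 1 point per library (red IFNα, blue control), with mean and SD of the 3 libraries of a group as a black bar. Id3, Col9a3 and Ddit3 were called lower with IFNα, while Id1 (edgeR adjusted p = 0.0631), Id2 (0.0752) and Smad6 (0.0882) were not.

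Apart from Gm12250, whose function was not examined, the remaining genes that rose were of varied function. Slc29a1, the nucleoside transporter ENT1, was at 15.4, 12.7 and 13.4 FPKM in wild-type IFNα and 12.6, 12.5 and 12.7 FPKM in mutant IFNα, against 8.76, 10.3 and 11.7 FPKM in wild-type control and 9.80, 8.51 and 9.19 FPKM in mutant control (log2 fold change 0.42 ± 0.07, edgeR adjusted p = 0.0296). All IFNα libraries lay above all controls. Nup210, a membrane protein of the nuclear pore, was at 0.58 ± 0.09, and Mapk11, the p38 beta kinase, at 1.03 ± 0.17. Rmi2, which dissolves recombination intermediates with BLM, was at 0.98 ± 0.16 and lies near Socs1 on chromosome 16. Gm12250, typed as a processed pseudogene in the annotation used here, was at 0.81 ± 0.14. This type, whether the gene encodes a protein and whether its reads belong to a parent gene were not tested. It lies near Igtp, an interferon-inducible GTPase gene, on chromosome 11, and its promoter window held 2 IRF elements and 1 GAS element. Mapk11 and Rmi2 averaged under 2 FPKM in every group. Each of these 5 calls ended when any of several single libraries was left out. Slc29a1 and Mapk11 were called in 2 of the 12 such fits, Nup210 and Rmi2 in 4 and Gm12250 in 1, with adjusted p up to 0.132.

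Of the genes that fell, Vamp5, a vesicle SNARE, was at 26.1, 29.1 and 28.5 FPKM in wild-type IFNα and 30.7, 28.5 and 17.6 FPKM in mutant IFNα, against 38.5, 42.7 and 43.5 FPKM in wild-type control and 42.2, 40.7 and 40.1 FPKM in mutant control (log2 fold change −0.64 ± 0.11, edgeR adjusted p = 0.0427). No IFNα library reached the lowest control. Bfsp2, a lens intermediate filament protein, was at 53.8, 52.2 and 49.4 FPKM in wild-type IFNα and 33.4, 32.7 and 27.1 FPKM in mutant IFNα, against 72.2, 78.3 and 92.8 FPKM in wild-type control and 42.2, 37.6 and 39.5 FPKM in mutant control (−0.52 ± 0.08, adjusted p = 0.0235). For Bfsp2 the lines differed in level by more than the treatment did, and the groups were separate within each line only. Dync1i1, a dynein intermediate chain, was at −0.60 ± 0.10. Hsd3b7, an enzyme of bile acid synthesis, was at −0.59 ± 0.09, Padi3, which converts arginine to citrulline in proteins, at −0.88 ± 0.16, and Rcsd1, a regulator of actin capping, at −0.50 ± 0.09. Optn, an autophagy receptor that also acts in signaling to interferon genes, was at −0.55 ± 0.10. It was the 1 gene of the 21 whose groups overlapped in FPKM, in the wild type. In CPM its groups were separate within each line. The noncoding RNAs among them were Gm16316 (−0.95 ± 0.14) and Lncbate10 (−1.19 ± 0.21). Gm16316 lies opposite Pkig, which had 61863 counts against 5105, and whether strand was used in counting is not given in the sources used here. These 9 calls held in 1 to 7 of the 12 fits without 1 library, with adjusted p up to 0.137.

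The 2 lines showed the same direction for all 21 genes. In 20 of the 21 the FPKM of IFNα and control libraries did not overlap within either line. Of all genes tested, 0.739% were so separated higher and 0.779% lower. The genes were chosen on these same libraries, so their agreement between lines is a description. As contrasts within the fit of all 12 libraries, 4 genes passed in wild-type cells (Irf1, Id1, Id3 and Col9a3) and 1 in C435A cells (H2-K2, a class I gene with near-identical relatives, at 1.13 ± 0.14, named after its values were seen). As an account that chooses in 1 line and reads in the other, 37 genes had an unadjusted p under 0.001 in the wild type, and 30 of them (81.1%) had the same sign in the mutant. Of 64 chosen so in the mutant, 59 (92.2%) had the same sign in the wild type, against 54.2% of all genes tested. The lines share no libraries, but both contrasts came from the same fit, with scaling and spread estimated over all 12. The choice in a line is thus not independent of the other, and these shares are a description. The 54.2% covers all genes tested, whose median level was 1.33 FPKM in the controls, and not genes of like level. In the test of the difference between the lines 0 genes passed with edgeR, 909 lay at an unadjusted p under 0.05, and DESeq2 called 15. Among the 21 genes the difference (mutant minus wild type) ranged from −0.41 to 1.11, and the smallest adjusted p was 0.916.

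**Figure D4:**
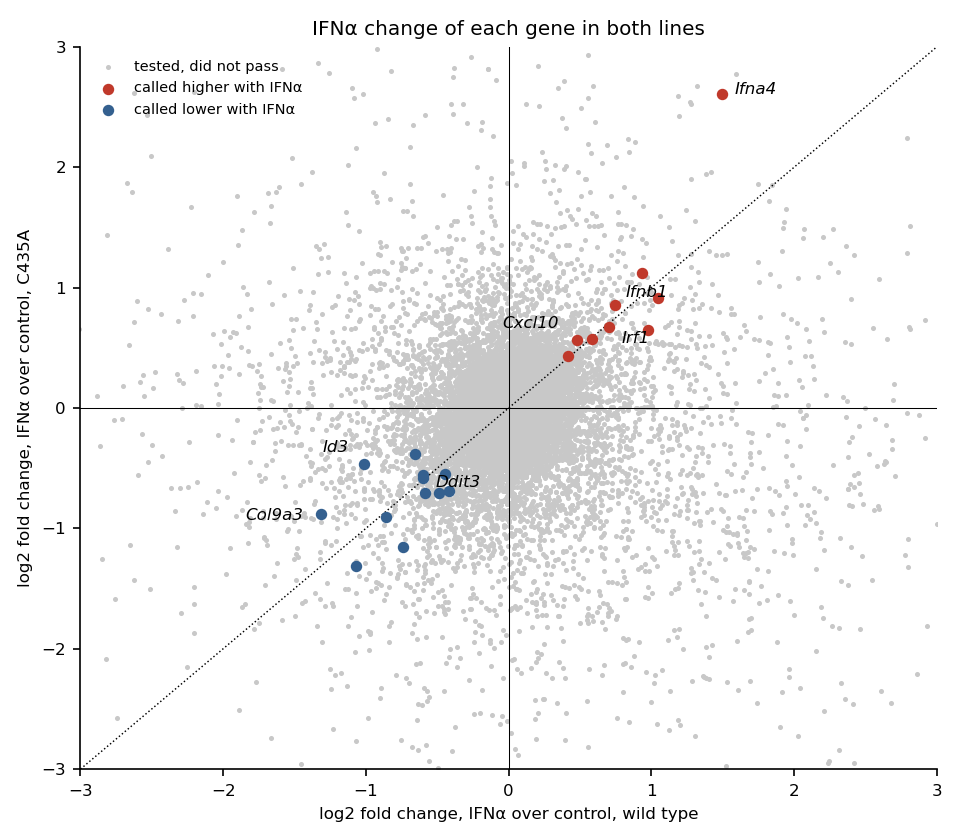
Log2 fold change with IFNα in the wild type (horizontal) and in C435A (vertical) for each gene tested, with 9 genes called higher in red and 12 called lower in blue; the dotted line marks equal change, and 370 genes past 3 on either axis are not drawn. All 21 called genes lie in the quadrants where both lines moved the same way.

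Cell-cycle genes lay on the higher side as groups, although 0 of them passed in edgeR. Of 47 mitosis genes 45 had a positive log2 fold change, against 8862 of 17590 over all genes. At an unadjusted p under 0.05, 21 were higher and 0 lower (all genes 5.4% and 4.1%). The mitosis median was 0.23 (0.30 in wild-type cells and 0.19 in C435A cells). Espl1, which encodes separase, was at 0.51 ± 0.13 (edgeR adjusted p = 0.147), and Tpx2, a spindle assembly factor, at 0.31 ± 0.09 (adjusted p = 0.212). Of 50 DNA replication genes 44 were positive, with 14 higher and 0 lower at an unadjusted p under 0.05. Their median was 0.15, with 0.23 in wild-type cells and 0.05 in C435A cells. Cdc45, part of the replicative helicase, was at 18.8, 15.7 and 15.8 FPKM in wild-type IFNα and 19.8, 21.5 and 19.2 FPKM in mutant IFNα, against 12.8, 12.6 and 14.9 FPKM in wild-type control and 16.2, 16.5 and 15.7 FPKM in mutant control. Its groups were separate within each line, at 0.30 ± 0.06 (adjusted p = 0.0882). DESeq2 called 3 of the mitosis and 5 of the replication genes higher and 0 lower. The mitosis median lay between 0.16 and 0.25, and the replication median between 0.04 and 0.18, over several settings. These were 3 scalings, presence of lung transcripts as a yes-or-no covariate, and fits without libraries that stood apart. The lowest of both came within the 8 libraries with lung transcripts.

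Genes of oxidative phosphorylation lay on the lower side, with 4 of 43 positive (all genes 8862 of 17590) and a median of −0.09. At an unadjusted p under 0.05, 0 were higher and 4 lower (all genes 5.4% and 4.1%). That median lay between −0.22, within the 8 libraries with lung transcripts, and −0.07, with up to 11 of 43 positive (without wild-type IFNα 1), over the same settings. Atp5g1 was at −0.24 ± 0.09 (edgeR adjusted p = 0.36) and Cox5a at −0.22 ± 0.08 (adjusted p = 0.381). Transcript length moved with the change over all genes. Over 9575 genes with a length proxy, taken as counts per FPKM, Spearman's rho with the log2 fold change was 0.24, and the medians of 20 length bins ran from −0.09 to 0.06. Less the median of its length bin, the list median was 0.22 for mitosis genes, 0.12 for replication genes, 0.11 for antiviral genes and −0.07 for oxidative phosphorylation, whose members had a median length percentile of 25.7. This check was chosen after the data were seen, and the part of length in these medians was not tested further.

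Pigment-cell genes lay mostly lower, with 11 of 33 positive (all genes 8862 of 17590) and a median of −0.11. At an unadjusted p under 0.05, 0 were higher and 7 lower (all genes 5.4% and 4.1%). Within the 8 libraries with lung transcripts the median was −0.05, with 15 of 33 positive. The closest to the threshold were Trpm1, a melanocyte ion channel, at −0.38 ± 0.08 (edgeR adjusted p = 0.0882), and Gpr143, a melanosome receptor, at −0.41 ± 0.09 (adjusted p = 0.0957). Mitf, the master factor of the lineage, was at −0.20 ± 0.10 (adjusted p = 0.561). Cholesterol synthesis genes had a median of 0.11, with Insig2, which retains the sterol sensor in the endoplasmic reticulum, at −0.40 ± 0.08 (adjusted p = 0.0882) and Srebf2, the factor that drives the pathway, at 0.41 ± 0.10 (adjusted p = 0.125). In the lists of NF-kB, immediate early and AP-1, unfolded protein response, glycolysis and hypoxia, heat shock and p53, and interferon-linked cell death genes, 0 members were called in edgeR, and the list medians were 0.01 to 0.13. Of 29 NF-kB genes tested, 3 were higher and 0 lower at an unadjusted p under 0.05, and DESeq2 called 1 higher. Relb and Map3k14 were at 0.36 to 0.52 and 0.38 to 0.51 over the fits without 1 library, where neither passed. The NF-kB inhibitors Nfkbia and Tnfaip3 were at −0.12 ± 0.09 and 0.01 ± 0.20. Nos1, the neuronal nitric oxide synthase, averaged 0.0129 FPKM with IFNα and 0.0144 FPKM without, and did not pass.

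**Figure D5:**
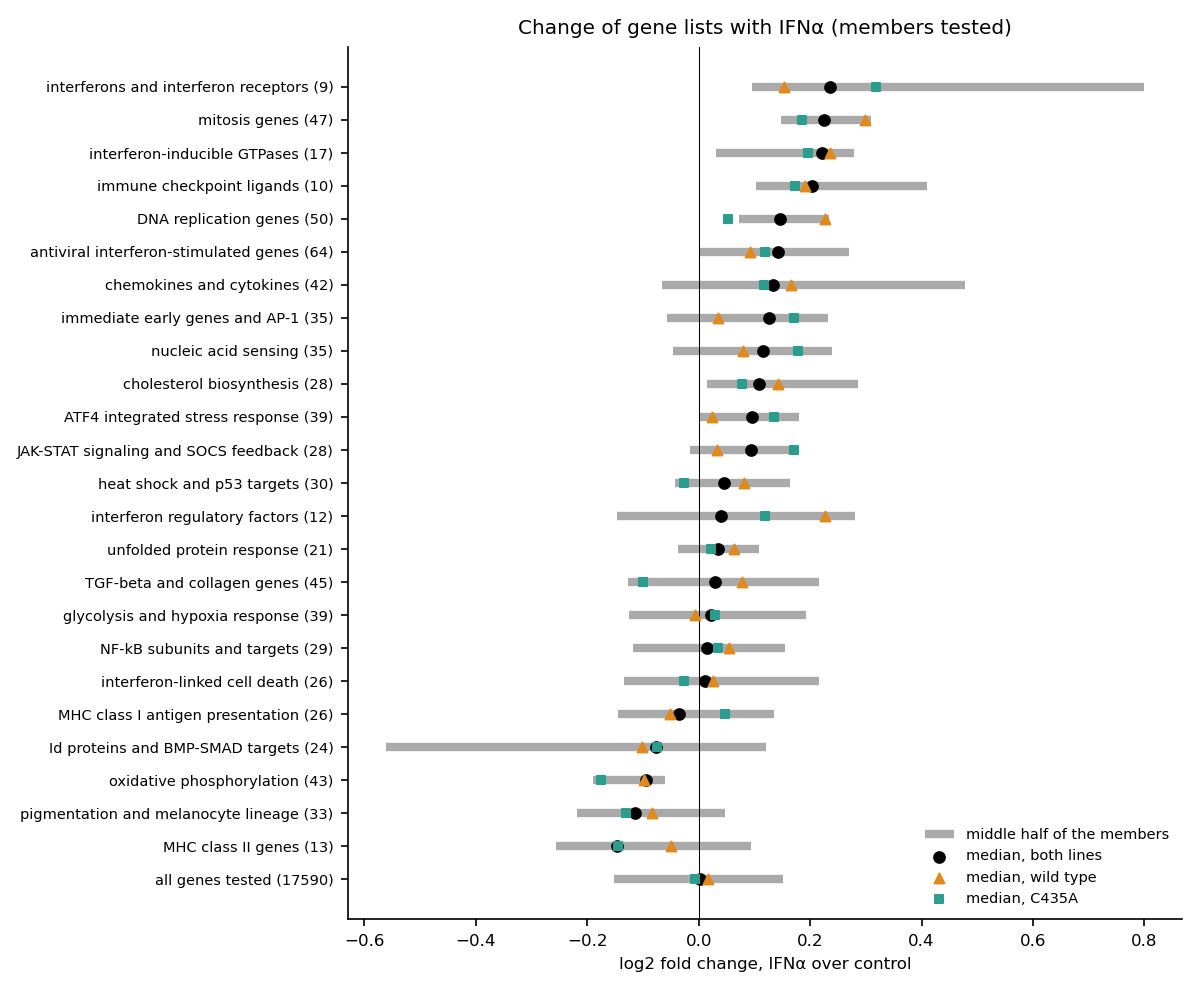
Median log2 fold change with IFNα of 24 gene lists and of all genes tested (black, with the middle 50% of the members as a grey bar), and the medians in the wild type (triangle) and C435A (square); the number of members tested stands in brackets. Interferons and receptors lie at 0.24, mitosis genes at 0.23 and MHC class II genes at −0.15, against 0.00 for all genes. The order of lists changed between settings: with presence of lung transcripts as a yes-or-no covariate MHC class II genes lay at −0.02, above pigmentation (−0.11) and oxidative phosphorylation (−0.10).

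Besides the called genes, those of smallest unadjusted p that had not passed, with groups separate within each line at 5 FPKM or more, were named to give 10 in each direction. On the higher side these were Nmral1, Mndal, Ska1, Neurl3 and Cdc45, with log2 fold changes of 0.30 to 0.57. On the lower side they were Id1, Leng1, Nudt22, Id2 and Insig2, with −0.40 to −0.75. Neurl3, a ubiquitin ligase gene, was at 7.78, 6.8 and 6.87 FPKM in wild-type IFNα and 20.1, 18.9 and 15.8 FPKM in mutant IFNα, against 5.16, 5.83 and 6.22 FPKM in wild-type control and 8.05, 9.90 and 12.1 FPKM in mutant control. Its groups were separate within each line, with a change of 0.30 ± 0.14 in wild-type cells and 0.84 ± 0.14 in C435A cells (difference unadjusted p = 0.0165 and adjusted p = 0.916 in edgeR). Atf3, a stress-induced factor that restrains inflammatory genes, was separate within each line as well, at 0.33 ± 0.07 (adjusted p = 0.0882).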

How the data were processed

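The sample labels gave the group and replicate number of each of the 12 libraries of B16F10 RNA. Poly(A) RNA was made into dUTP-stranded libraries whose adapters carried molecular identifiers, per the labels' protocols. Tools in the submitters' processing notes are HISAT2 2.0.4, StringTie 1.3.4d, cutadapt 1.9 and UMI-tools, besides edgeR and DESeq2, with GRCm38 as the build. What each did, which annotation applied and whether strand or identifiers were used is not given in the sources used here. The authors deposited counts, whole numbers with no scaling for depth, and FPKM, which per the file headers are scaled by length and library. Coordinates are as deposited and differ from GRCm38 gene starts. Levels are FPKM and all main tests used counts.

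The main fit was edgeR 4.0.16 (R 4.3.3), quasi-likelihood, with TMM scaling, its default filter by group, line and IFNα as additive terms, two-sided tests and Benjamini-Hochberg adjustment over 17590 genes at 0.05. Values per line and the interaction came from a fit with 4 group means. Depth was 60511573 to 75927461 counts a library, and how far it limits precision was not tested. Alternatives used DESeq2 1.42.0, limma 3.58.1, other scalings, filters and library subsets. The code was tested on simulated counts. Members, lists and named genes were chosen with earlier results of these data known. Named genes were the called genes with the largest changes that were separate within each line at 5 FPKM or more (predicted genes and pseudogenes left out), filled up to 10 a direction with the uncalled genes of smallest unadjusted p under the same conditions, 41 genes given whatever their result (1 is not reported here), and up to 2 leading uncalled or 6 called members of each of 27 lists. Other genes called in the main fit are named because they are few.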

Additional observations from a re-analysis of the deposited data

How the results depend on the processing

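The sign of all 21 called genes was the same in each setting that tested them, and Irf1 and Col9a3 passed in each. In the main fit 9 genes were higher and 12 lower. Among them were 10 of the 20 genes named by size of a called change or, uncalled, by p. The counts higher and lower stayed within 1.5 times with DESeq2 size factors, an FPKM minimum of 5, robust estimation and limma-trend on log2(FPKM + 0.1) (9 and 14). They were 7 and 6 with library totals, 121 and 109 with DESeq2, and 33 and 40 with limma-voom and quality weights. With limma-trend on log2(FPKM + 1) they were 14 and 18, with no filter 8 and 7, and with 4 group means 15 and 15. With the log2 level of lung transcripts as a covariate they were 15 and 21. Within the 8 libraries with lung transcripts they were 5 and 5, and without wild-type control 1 and mutant IFNα 3, a setting chosen after seeing the data, 4 and 5. At an adjusted p of at most 0.01 they were 1 and 1. Of these 20 genes, those that passed numbered 19, 20, 16, 1 and 4 with DESeq2, quality weights, the FPKM minimum, the lung libraries and the last pair left out. Leaving out 1 library gave 1 to 12 higher, 1 to 18 lower, 1 to 12 of these 20, and 0 in the interaction, where DESeq2 called 15. With the replicate number as a block, counts were 3 and 4, and 4 of these 20. Same-numbered libraries showed little shared deviation (18 correlations, −0.30 to 0.11, 2 over 0.1, and 3 of 12 libraries best with their own number). Differently numbered libraries ranged from −0.31 to 0.46. The labels do not state whether same-numbered libraries were paired, and these correlations, from 3 libraries a group, cannot decide it. The causes of these shifts were not tested. Over 98 named genes, 228 values lost and 137 gained the threshold, 0 called values reversed, and 16 uncalled genes changed sign, in 55 pairs of gene and setting. What depth limits was not tested; Ifna4 rests on 169 to 390 counts a library with IFNα and 14 to 185 without.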
